A study of Mus musculus with 56 samples.

Results

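Serotonin receptors were described in nucleus accumbens and prefrontal cortex of inbred mice through 10 receptor genes, Htr1a, Htr1b, Htr1d, Htr2a, Htr2c, Htr3a, Htr4, Htr5a, Htr6 and Htr7. Their Entrez gene identifiers are 15550, 15551, 15552, 15558, 15560, 15561, 15562, 15563, 15565 and 15566, in that order. Every array probe set annotated to these symbols alone was taken, which gave 17 probe sets of 9 genes, among 44951 probe sets and 18182 genes in all. Htr2a, the cortical receptor through which serotonergic hallucinogens act, had no such probe set and was not analysed here. Nucleus accumbens, a ventral striatal region of reward processing, was measured on 27 arrays and prefrontal cortex on 29 arrays. Each array carried total RNA pooled from 3 male mice of 1 inbred strain, 8 to 10 weeks old, with no treatment named in the labels. The design text describes both regions as dissected from neighbouring slices of a brain, but it does not state outright that the same mice gave both pools of a strain.

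The 27 strains with both regions were WSB/EiJ, a wild-derived strain, and SWR/J, SM/J, SJL/J, RIIIS/J, PL/J, P/J, NZW/LacJ, NON/LtJ, NOD/LtJ, MA/MyJ, KK/HlJ, I/LnJ, FVB/NJ, DBA/2J, CE/J, CBA/J, C58/J, C57BR/cdJ, C57BL/6J, C3H/HeJ, BUB/BnJ, BTBR T+ tf/J, BALB/cByJ, AKR/J, A/J and 129S1/SvImJ. NZO/HILtJ and MRL/MpJ were measured in cortex only. A strain had 1 pool in each region, so n counts strains, and differences between pools of mice are part of the spread given for strains.

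Serotonin reaches both regions along axons of raphe neurons in the brainstem, and its receptors are made by the cells that receive it or by the axon terminals that it modulates. Htr1a, Htr1b, Htr1d and Htr5a encode receptors coupled to inhibitory G proteins, Htr2a and Htr2c receptors coupled to phospholipase C, Htr4, Htr6 and Htr7 receptors that stimulate adenylyl cyclase, and Htr3a a subunit of a cation channel. In the striatum, spiny projection neurons transcribe Htr1b and Htr2c, and Htr1b protein is carried to their axon terminals.

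Of the 6 receptor probe sets that passed the brightness filter given below, 4 were called higher in accumbens and 2 lower. The 4 were Htr1b, Htr4 and both of Htr2c, and the 2 were Htr1a and Htr7. Of all tested probe sets, 51.8% were higher in accumbens and 31.5% lower. The 2 lower calls involve dim levels. Htr1a averaged 3.02 in accumbens and 4.95 in cortex, both under the floor set below. With values raised to that floor, Htr7 did not pass (-0.07, adjusted p = 0.231 by limma). The sequences around the annotated starts of Htr2c and Htr1b, called higher in accumbens, and of Htr1a and Htr7, called lower, are shown for comparison. Each runs from 250 bases before to 50 bases after the start on the strand of the gene. They are RefSeq sequences of build GRCm38.p6, with Htr2c at chrX:146962263-146962562 (+), Htr1b at chr9:81633783-81634082 (-), Htr1a at chr13:105443443-105443742 (+) and Htr7 at chr19:36057311-36057610 (-). Capitals mark matches, on either strand, to the nuclear receptor motif AGGTCA, the cAMP response motif TGACG or the E-box CATCTG.
Htr2c: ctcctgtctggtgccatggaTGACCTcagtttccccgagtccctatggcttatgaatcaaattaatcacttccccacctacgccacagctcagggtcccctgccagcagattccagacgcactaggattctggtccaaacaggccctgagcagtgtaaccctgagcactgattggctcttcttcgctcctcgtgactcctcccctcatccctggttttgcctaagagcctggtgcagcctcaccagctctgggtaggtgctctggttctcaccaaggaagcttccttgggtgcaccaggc
Htr1b: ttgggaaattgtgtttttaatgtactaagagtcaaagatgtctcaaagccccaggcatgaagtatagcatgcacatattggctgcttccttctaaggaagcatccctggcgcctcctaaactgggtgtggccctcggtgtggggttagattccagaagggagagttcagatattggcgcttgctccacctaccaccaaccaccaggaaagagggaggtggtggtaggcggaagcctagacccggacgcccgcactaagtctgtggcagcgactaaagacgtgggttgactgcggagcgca
Htr1a: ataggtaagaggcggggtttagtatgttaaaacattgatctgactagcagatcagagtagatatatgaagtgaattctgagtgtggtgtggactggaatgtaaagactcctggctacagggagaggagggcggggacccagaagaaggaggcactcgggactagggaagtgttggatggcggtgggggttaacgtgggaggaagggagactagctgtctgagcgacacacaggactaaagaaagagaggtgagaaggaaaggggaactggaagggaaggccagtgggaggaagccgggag
Htr7: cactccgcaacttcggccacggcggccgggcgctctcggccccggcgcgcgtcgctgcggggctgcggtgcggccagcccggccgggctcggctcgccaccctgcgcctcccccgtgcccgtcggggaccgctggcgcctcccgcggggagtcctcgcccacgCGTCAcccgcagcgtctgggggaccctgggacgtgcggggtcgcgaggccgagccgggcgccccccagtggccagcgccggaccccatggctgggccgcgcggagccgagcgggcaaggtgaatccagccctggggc

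The Htr2c sequence held 1 match to AGGTCA, a motif found in 16.3% of the 32851 promoters in the table. The Htr7 sequence held 1 match to TGACG, found in 20.8% of them, and no matches overlapped. CATCTG, found in 17.2%, was in none of these 4 sequences, and Htr1b and Htr1a held none of the 3 motifs. Bases G and C made up 81% of the Htr7 sequence, against 56.3% for Htr2c, 53.3% for Htr1b, 52.3% for Htr1a and a median of 52.7% over all promoters. The arrays measured transcript levels and not these sequences, so a match is a description only.

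Levels are log2 of the deposited intensity, and log2 5 was taken as the floor under which a probe set was called dim. Probe sets of a gene are called brighter and dimmer, or ranked where there are 3, by their mean over both regions. On every array 66.3% to 69.0% of all probe sets lay at or under it. Tests were run on probe sets that exceeded log2 5 on 13 or more of the 54 arrays of strains with both regions, which kept 16056 probe sets, 6 of the 17 receptor probe sets among them. The 11 receptor probe sets that were not tested included all those of Htr1d, Htr3a, Htr5a and Htr6.

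The region labels were checked against marker lists. The 13 measured genes of striatal spiny neurons averaged 10.18 in accumbens (7.33 to 10.69) and 5.87 in cortex (5.62 to 9.41), and the 11 measured genes of cortical excitatory neurons 3.82 in accumbens (3.45 to 4.90) and 7.99 in cortex (7.28 to 8.22). Lowest in spiny genes among accumbens arrays was BALB/cByJ, at 7.33, and highest among cortex arrays was MA/MyJ, at 9.41, with the next cortex array at 5.94. These arrays stand apart from the rest of their region, and region differences, strain tests and correlations are also given without them where they decide the value. Means of other cell lists also moved with region: 6 septal genes averaged 6.42 in accumbens and 4.01 in cortex, and 6 oligodendrocyte genes 9.76 in accumbens and 8.31 in cortex. The septal genes did not move as a set: Dlk1, Nts and Gpr101 were higher in accumbens and Zic1 differed little (7.78 against 7.58). Zic2 (3.02 against 3.43) and Trpc4 (4.06 against 5.33) were lower. The part of these cells in the receptor differences was not tested. Transcripts of serotonergic cell bodies were dim in both regions: Tph2, Slc6a4 and Slc18a2 averaged 2.83, 2.19 and 3.20 in accumbens and 2.90, 2.18 and 3.15 in cortex. In bulk tissue, fewer cells of a type and less RNA per cell cannot be told apart.

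**Figure D1:**
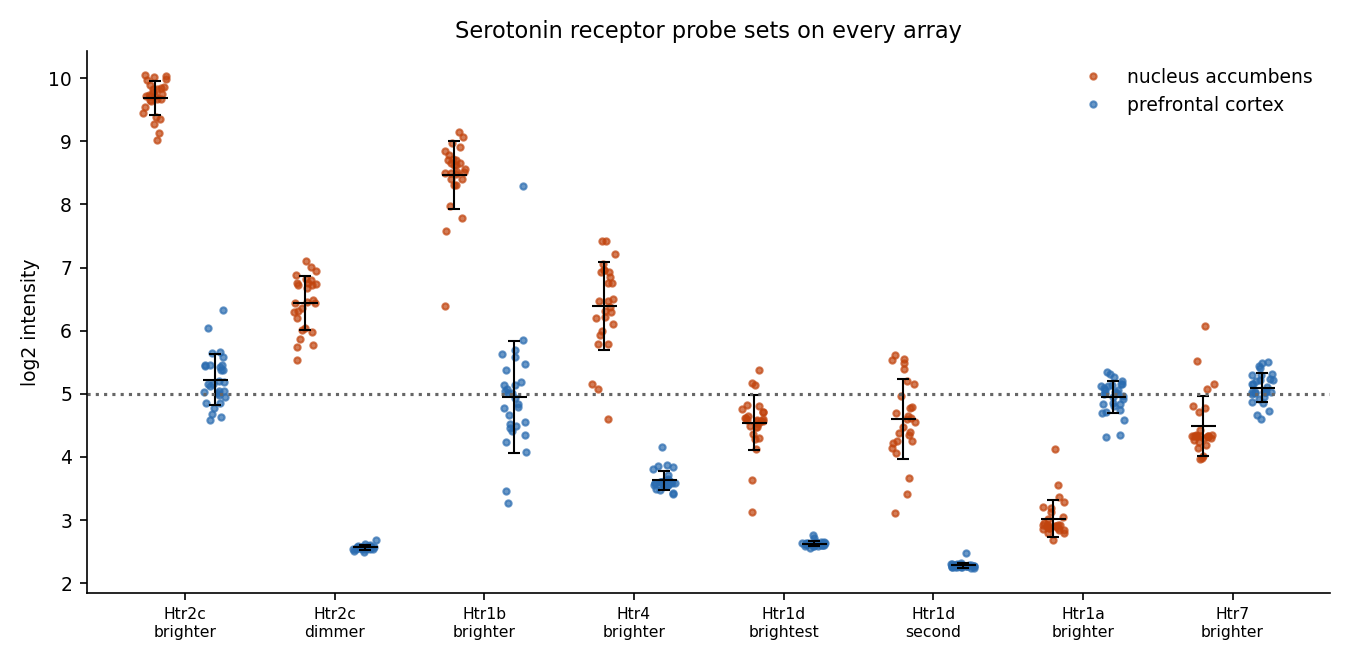
Log2 intensity of 8 receptor probe sets on every array, nucleus accumbens to the left (27 arrays) and prefrontal cortex to the right (29 arrays) within each pair. Points are arrays, black marks are means ± SD, and the dotted line is log2 5. The 2 regions do not overlap for either Htr2c probe set, Htr4, Htr1d or Htr1a, whereas the MA/MyJ cortex array at 8.30 lies among the accumbens arrays for Htr1b. The Htr1d probe sets were not tested, and only 3 (brightest) and 7 (second) of their accumbens arrays are above log2 5.

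The first comparison asked which receptors differed between the regions. It fitted region and strain to all 16056 probe sets with limma, and p-values are adjusted over all of them by the Benjamini-Hochberg method. Most probe sets passed this test: 83.3% differed between regions, 51.8% higher in accumbens and 31.5% lower. After quantile normalization of all arrays together the split was more even, at 42.6% higher and 39.4% lower, and the receptor calls did not change. The receptors' counts of 4 higher and 2 lower, with 6 of 6 passing, are read against that background. With values under log2 5 raised to it, a difference of at least 2-fold was less common, at 6.13% higher and 4.5% lower (8.96% and 6.59% with values as deposited). Of the receptor probe sets 4 had one, Htr1b, Htr4 and both of Htr2c, all higher. Htr4 and the dimmer Htr2c probe set passed the filter through accumbens arrays alone, and Htr1a through cortex arrays alone. Their directions and p-values, and so the counts that hold them, are in part set by the filter and are a description only. The arrays of each region shared a value range that those of the other region did not. The 10th lowest level lay between 1.12 and 1.15 in accumbens and between 0.98 and 1.01 in cortex. The 100th highest level lay between 12.50 and 12.63 in accumbens and between 12.36 and 12.46 in cortex. A region effect and an effect of separate normalization therefore cannot be told apart. The median difference over all tested probe sets was 0.13 on the log2 scale, and 0.02 after quantile normalization.

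Htr1b encodes the inhibitory receptor of axon terminals. Its brighter probe set had a lowest level of 6.38 in accumbens, in BALB/cByJ, a median of 8.56 and a highest of 9.15, in SM/J, against a lowest of 3.26 in cortex, in CBA/J, a median of 4.94 and a highest of 8.30, in MA/MyJ. The regions overlapped only through MA/MyJ, whose cortex level was above the accumbens levels of 4 strains, whereas the next cortex array, NZO/HILtJ, was at 5.85. Htr1b averaged 8.47 ± 0.54 in accumbens (SD, n = 27) and 4.94 ± 0.89 in cortex (SD, n = 29). It was higher in accumbens by 3.52 on the log2 scale (SE 0.184, adjusted p = 3.93e-17 by limma), at least 9.31-fold, and in 27 of 27 strains. This bound sets the accumbens mean against cortex levels raised to log2 5 where they lay under it.

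The difference within a strain ran from 0.48 in MA/MyJ and 1.86 in BALB/cByJ up to 5.39 in CBA/J. Without MA/MyJ it was 3.64 (SE 0.152), and without BALB/cByJ it was 3.59 (SE 0.18). CBA/J and PL/J had the lowest cortex levels, 3.26 and 3.46, but their accumbens levels of 8.65 and 8.84 were above the accumbens median. The dimmer Htr1b probe set was under log2 5 on every array, at 3.11 ± 0.17 in accumbens and 2.50 ± 0.12 in cortex.

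Htr1d encodes a related inhibitory receptor. The second-brightest of its 3 probe sets lay at 3.11 in BALB/cByJ, a median of 4.60 and 5.61 in BTBR T+ tf/J in accumbens, against 2.24 in MRL/MpJ, a median of 2.28 and 2.48 in MA/MyJ in cortex. The brightest lay between 3.12, in BALB/cByJ, and 5.37, in P/J, in accumbens and between 2.56 and 2.77 in cortex. Accumbens arrays were above all cortex arrays for both, yet only 7 accumbens arrays for the second and 3 for the brightest passed log2 5. Neither probe set was tested, so no fold is given, and the share of untested probe sets without overlap was not counted. Under the floor the regions also did not overlap for Htr6, at 2.14 to 2.25 in accumbens and 1.90 to 2.01 in cortex. The same held for Htr3a, lower in accumbens, at 2.15 to 2.22 against 2.40 to 2.71. Other receptor probe sets under log2 5 on every array overlapped. Separation at such levels is a description only, since the lowest values of the arrays also differed between regions, as given above. Over the accumbens arrays the 2 brighter Htr1d probe sets correlated at r = 0.85 (n = 27 arrays, a description). BALB/cByJ and NON/LtJ were lowest on both. The dimmest Htr1d probe set stayed under log2 5, at 2.26 ± 0.18 in accumbens and 1.98 ± 0.02 in cortex.

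Htr1a encodes the inhibitory receptor that serves as autoreceptor on raphe neurons and acts on cortical and hippocampal neurons. Its brighter probe set had a lowest level of 2.68 in accumbens, in NZW/LacJ, a median of 2.92 and a highest of 4.12, in BALB/cByJ, against a lowest of 4.32 in cortex, in CE/J, a median of 5.01 and a highest of 5.34, in A/J. The regions did not overlap, but no accumbens array and 15 of 29 cortex arrays were above log2 5, and the probe set was tested with 14 of 54 arrays above it. Htr1a was lower in accumbens by limma, with a difference of -1.93 (SE 0.088, adjusted p = 1.66e-18), and lower in 27 of 27 strains. Both means were under log2 5, at 3.02 ± 0.29 in accumbens and 4.95 ± 0.25 in cortex, so no fold is given. With values under log2 5 raised to it the difference was -0.07 (SE 0.025, adjusted p = 0.0085 by limma). BALB/cByJ had the smallest difference within a strain, at -0.58, and NZW/LacJ the widest, at -2.63.

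Htr2c encodes the phospholipase C coupled receptor whose transcript is edited at several codons. Its brighter probe set had a lowest level of 9.01 in accumbens, in BALB/cByJ, a median of 9.71 and a highest of 10.04, in 129S1/SvImJ, against a lowest of 4.59 in cortex, in C58/J, a median of 5.16 and a highest of 6.33, in MA/MyJ. The gap between the lowest accumbens and the highest cortex array was wider than the spread within either region, which was 0.27 in accumbens and 0.40 in cortex (SD). Htr2c was higher in accumbens by 4.46 (SE 0.097, adjusted p = 1.16e-26 by limma) and in 27 of 27 strains, with differences within a strain of 3.37 in BALB/cByJ and 3.38 in MA/MyJ up to 5.25 in PL/J. Without MA/MyJ and without BALB/cByJ it was 4.50 each time.

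The dimmer Htr2c probe set gave 6.44 ± 0.43 in accumbens, from 5.53 in BALB/cByJ to 7.11 in 129S1/SvImJ, and 2.57 ± 0.03 in cortex, where no array passed log2 5. It was higher in accumbens by 3.87 (SE 0.081, adjusted p = 6.08e-27 by limma), which is at least 2.71-fold. Both probe sets put BALB/cByJ lowest and 129S1/SvImJ highest in accumbens, and their levels correlated at r = 0.73 across accumbens arrays (0.59 over 22 strains, without 5 named below) but at -0.04 across cortex arrays, where the dimmer one was under log2 5 (n = 27 and 29 arrays, a description).

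Htr2c is transcribed strongly in choroid plexus, so its markers were measured beside it. The 9 measured choroid plexus genes averaged 3.26 in accumbens (2.94 to 3.55) and 2.61 in cortex (2.47 to 3.54). In accumbens 2 of the 9 had a mean above log2 5, Clic6 at 6.94 and Ttr at 5.0, and in cortex none had, with Clic6 at 2.33 and Ttr at 3.59. The other genes of the list averaged under log2 5 in both regions, some slightly higher in accumbens (Sostdc1, 3.03 against 2.65) and some lower (Kcnj13, 2.11 against 2.53). The cortex array with the highest choroid plexus mean, SM/J, had an Htr2c level of 5.13, near the cortex median of 5.16. Across accumbens arrays the relation of Htr2c with the choroid plexus mean was negative, with r = -0.54 (adjusted p = 0.127 by permutation), and did not pass. The part of choroid plexus tissue in the Htr2c levels was not tested.

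Htr4 encodes a receptor that stimulates adenylyl cyclase. Its brighter probe set had a lowest level of 4.60 in accumbens, in BALB/cByJ, a median of 6.46 and a highest of 7.42, in MA/MyJ, against a lowest of 3.41 in cortex, in MRL/MpJ, a median of 3.60 and a highest of 4.15, in P/J. The regions did not overlap, and 26 of 27 accumbens arrays but no cortex array were above log2 5. Htr4 averaged 6.39 ± 0.70 in accumbens (SD, n = 27) and 3.63 ± 0.15 in cortex (SD, n = 29), and was higher in accumbens by 2.75 (SE 0.122, adjusted p = 7.21e-19 by limma), at least 2.62-fold. The smallest differences within a strain were 1.03 in BALB/cByJ and 1.48 in BUB/BnJ, and the widest was 3.87 in 129S1/SvImJ. Without BALB/cByJ the difference was 2.82 (SE 0.108). The other Htr4 probe set was dim, at 2.80 ± 0.18 in accumbens and 2.83 ± 0.06 in cortex.

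Htr7 also encodes a cyclase-stimulating receptor. Its brighter probe set had a lowest level of 3.96 in accumbens, in MA/MyJ, a median of 4.34 and a highest of 6.07, in BALB/cByJ, against a lowest of 4.60 in cortex, in MA/MyJ, a median of 5.04 and a highest of 5.50, in NOD/LtJ. The regions overlapped, and only 4 accumbens and 22 cortex arrays were above log2 5. Htr7 was lower in accumbens by limma, with a difference of -0.61 (SE 0.093, adjusted p = 5.87e-07), but higher there in 3 of 27 strains, with differences within a strain from -1.22 in 129S1/SvImJ to 1.05 in BALB/cByJ. With values under log2 5 raised to it, the difference was -0.07 (adjusted p = 0.231 by limma), and the call was lost. Without BALB/cByJ it was -0.67 (SE 0.073). The other Htr7 probe set was dim, at 2.55 ± 0.03 in accumbens and 2.58 ± 0.02 in cortex.

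Htr3a, Htr5a and Htr6 were under log2 5 on all 56 arrays. Htr3a, the channel subunit made by cortical interneurons of caudal ganglionic origin, lay between 2.15 and 2.22 in accumbens and between 2.40 and 2.71 in cortex, and the list of 10 markers of those interneurons averaged 4.82 in accumbens and 6.41 in cortex, with 5 of the 10 above log2 5 in each region. Among these markers Vip was at 2.87 in accumbens and 8.86 in cortex, Reln at 8.10 in accumbens and 8.14 in cortex, and Calb2 at 5.39 in accumbens and 4.52 in cortex, whereas Npas1, Prox1 and Sp8 were dim in both. The Htr5a probe sets averaged 2.10 and 3.23 in accumbens and 2.10 and 3.47 in cortex, and Htr6 averaged 2.20 in accumbens and 1.93 in cortex. These levels say only that the probe sets gave no signal above the floor. With no filter on dim probe sets, 14 of the 17 receptor probe sets passed the region test, 9 higher and 5 lower, but so did 79.4% of all probe sets, and 22459 of the 29170 with both region means under log2 5, which is 77%.

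Agreement between strains was also counted without the model. In 27 of 27 strains accumbens was higher for both Htr2c probe sets, Htr1b and Htr4, a pattern shown by 18.7% of the tested probe sets, and lower for Htr1a, shown by 10.9%. Arrays of the regions did not overlap for both Htr2c probe sets and Htr4, higher in accumbens, as for 5.85% of the tested probe sets. They did not overlap for Htr1a either, lower in accumbens, as for 4.67%. Htr4 and the dimmer Htr2c probe set passed the filter through accumbens arrays alone, and Htr1a through cortex arrays alone. For these 3 both patterns, like their limma calls, are in part set by the filter, so they are a description only.

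The second comparison asked whether receptor levels differed between strains in a way shared by both regions. None of the 6 tested receptor probe sets passed limma's moderated F test over strains, against 20.1% of the tested probe sets, and none reached an unadjusted p of 0.05. The adjusted p-values ran from 0.321 for Htr4 to 0.993 for Htr1a. Simulated strain differences with an SD of 0.5 were called in 92% of probe sets at the spread of the real ones, so a strain effect of that size would mostly be called for a probe set of typical noise. The receptors were noisier than that: the residual SD was 0.714 for Htr1b, 0.472 for Htr4, 0.371 and 0.310 for Htr2c, 0.355 for Htr7 and 0.339 for Htr1a, against a median of 0.207.

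Htr1b had the widest spread of strain means among the receptors, with an SD of 0.534, above 95.6% of the tested probe sets. Its mean of both regions ran from 5.46 in BALB/cByJ to 8.54 in MA/MyJ, and without MA/MyJ the SD was 0.396. Of the 26 gaps between neighbouring strains in that order, 1 was wider than the residual SD, and for the other 5 probe sets none was. MA/MyJ had the highest strain mean for Htr1b, Htr4 and Htr2c (brighter probe set), and the lowest for Htr1a and Htr7. BALB/cByJ had the lowest for Htr1b, Htr4 and Htr2c (dimmer probe set), and the highest for Htr1a and Htr7. The strain effect on Htr1b also did not pass without MA/MyJ (adjusted p = 0.582) or without BALB/cByJ (adjusted p = 0.513, both by limma).

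**Figure D2:**
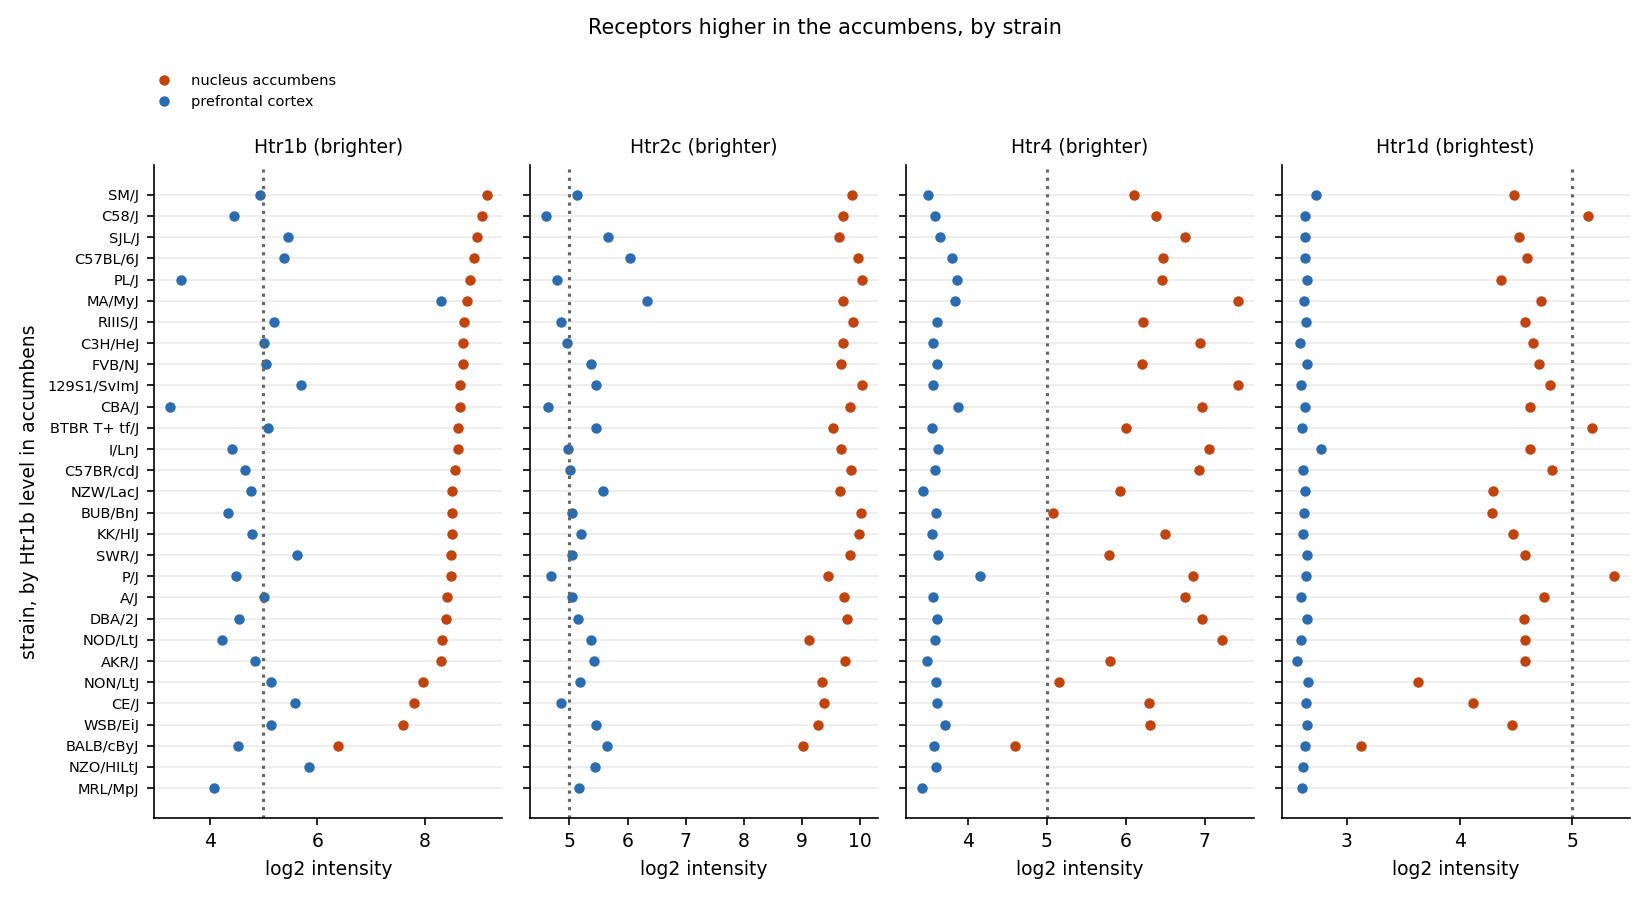
Log2 intensity of Htr1b, Htr2c, Htr4 and Htr1d by strain, accumbens in orange and cortex in blue, with strains ordered by their Htr1b level in accumbens and the 2 strains measured in cortex only at the bottom. The dotted line is log2 5. BALB/cByJ is lowest in accumbens for all 4 genes, and for Htr1b the MA/MyJ cortex level of 8.30 lies next to its accumbens level of 8.78.

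The strain order of a receptor in accumbens was set against its order in cortex over the 27 strains. No receptor probe set passed a permutation test of Pearson's r with adjustment over all tested probe sets, against 14.9% that passed with a positive r and 0.0187% with a negative r. Htr1a came nearest, with r = -0.49 (unadjusted p = 0.012, adjusted p = 0.070, and Spearman's rho -0.39 with unadjusted p = 0.049), and was the only receptor probe set with an unadjusted p under 0.05. Its accumbens levels were all under log2 5, so their order is one of values not above the floor, and without the 5 strains named below r was -0.34 (adjusted p = 0.312). The others lay between -0.36 for Htr2c (dimmer probe set) and 0.31 for Htr4, both under log2 5 on all cortex arrays. Htr1b gave 0.06. Without the 2 strains farthest from the cortex median, CE/J and MA/MyJ, r for Htr1a was -0.50.

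Receptor levels were then set against the make-up of each array. The score used was the mean level of the spiny neuron list minus that of the cortical excitatory neuron list, from 3.32 in BALB/cByJ to 7.18 in C3H/HeJ in accumbens and from -2.53 in NOD/LtJ to 2.14 in MA/MyJ in cortex. Across accumbens arrays all 6 receptor probe sets passed the permutation test of Pearson's r with the score. Of all tested probe sets 17.8% passed with a positive r and 19.6% with a negative r. By permutation of Spearman's rho only Htr1b (adjusted p = 0.012) and Htr2c (brighter probe set, adjusted p = 0.049) passed. The adjusted p of rho was 0.061 for Htr2c (dimmer probe set), 0.067 for Htr1a, 0.102 for Htr7 and 0.23 for Htr4. Over all tested probe sets 1844 passed by rho, against 6009 by r. Htr1b, Htr4 and both Htr2c probe sets were higher where the score was higher, and Htr1a and Htr7 were lower. The first 4 of these were bright in accumbens, but Htr1a was above log2 5 on 0 of 27 accumbens arrays and Htr7 on 4 of 27. Both were tested through their cortex levels, and their accumbens relations rest on values mostly or wholly under the floor. In all, 30 relations of receptor levels with the other region or with a score were computed.

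Htr1b gave r = 0.82 with the score in accumbens (p = 2e-05, adjusted p = 0.00062, rho 0.65, n = 27), and 0.55 without BALB/cByJ and NON/LtJ, the arrays farthest from the median score. Htr2c gave r = 0.72 (adjusted p = 0.00098, rho 0.52) and 0.62 (adjusted p = 0.0026, rho 0.50) for its probe sets, and 0.54 and 0.52 without those arrays. Htr4 gave r = 0.57 (adjusted p = 0.011, rho 0.34), but 0.19 without them, so its relation rested on them. Among the dim levels of the other two, Htr1a gave r = -0.84 (adjusted p = 0.00072, rho -0.49) and Htr7 r = -0.81 (adjusted p = 0.00072, rho -0.45), and both were weaker without them, at -0.58 and -0.56.

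The test was run again without 5 strains. BALB/cByJ, NON/LtJ, CE/J and WSB/EiJ had the lowest spiny list means in accumbens, and MA/MyJ the highest in cortex, with an accumbens score of 6.94. NOD/LtJ, BUB/BnJ and SJL/J stayed in, though their accumbens scores of 5.42, 5.60 and 5.64 were under the 5.92 of WSB/EiJ. Their cortical list means were the highest in accumbens, at 4.90, 4.78 and 4.75. Without the 5 strains no receptor probe set passed, and r was 0.32 for Htr1b and 0.42 and 0.35 for Htr2c. It was 0.12 for Htr4, -0.33 for Htr1a and -0.24 for Htr7. Only 79 of the 16056 probe sets passed then, against 6009 on all accumbens arrays. The region differences were kept without these strains, at 3.88 for Htr1b, 4.60 and 3.95 for Htr2c, 2.86 for Htr4, -2.11 for Htr1a and -0.79 for Htr7. Whether tissue make-up sets the spread of these receptors was not tested.

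**Figure D3:**
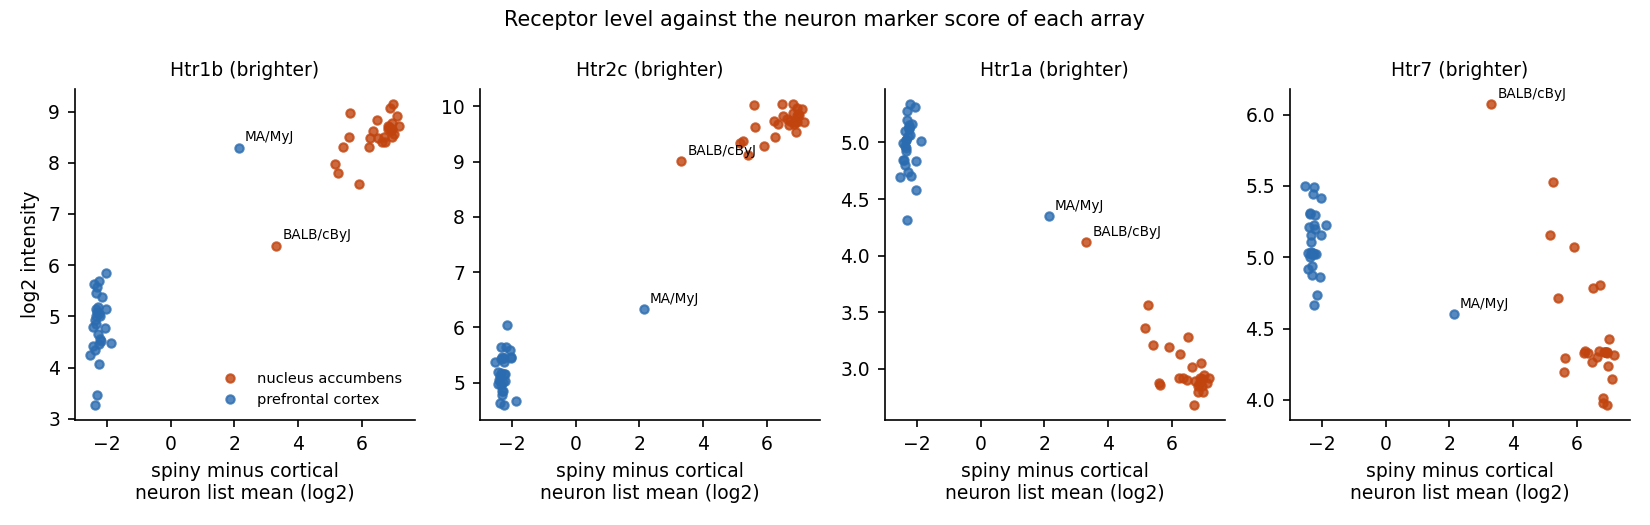
Receptor level in log2 intensity on the vertical axis against the score of each array, spiny neuron list mean minus cortical neuron list mean in log2 units, on the horizontal axis, for Htr1b, Htr2c, Htr1a and Htr7. Points are arrays, accumbens in orange and cortex in blue, with the BALB/cByJ accumbens and MA/MyJ cortex arrays named. BALB/cByJ, at a score of 3.32, has the lowest accumbens level of Htr1b, 6.38, and the highest of Htr1a, 4.12, and of Htr7, 6.07. All accumbens levels of Htr1a, and all but 4 of Htr7, are under log2 5.

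Across the 29 cortex arrays no receptor probe set passed with this score, and 0.0% of all tested probe sets did. Without adjustment 3 receptor probe sets and 2350 of all were under p = 0.05. Htr1b gave r = 0.74 (unadjusted p = 0.0058, adjusted p = 0.286) and Htr2c (brighter probe set) 0.54 (adjusted p = 0.286). Without MA/MyJ and P/J these were 0.29 and 0.38, so the relation of Htr1b rested on those arrays. On the MA/MyJ cortex array, Htr1b and Htr2c (brighter probe set) were the highest of the region. The second-brightest Htr1d probe set was too, at 2.48 against 2.32 in PL/J, the next, but under log2 5. Htr4, at 3.83 and below only P/J, CBA/J and PL/J, and the brightest Htr1d probe set, at 2.62, were also under log2 5.

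With the choroid plexus mean, no receptor probe set passed by Pearson's r in accumbens or in cortex, where 0.0% of all tested probe sets did. By Spearman's rho no receptor probe set passed either, against 5 of all tested probe sets in accumbens and 370 in cortex. Without adjustment 5 receptor probe sets and 3438 of all were under p = 0.05 in accumbens, and 1 receptor probe set and 846 of all in cortex. In accumbens r was 0.62 for Htr7 (adjusted p = 0.104), 0.57 for Htr1a, -0.60 for Htr2c (dimmer probe set) and -0.48 for Htr1b, where the levels of Htr7 and Htr1a were again mostly or wholly under log2 5.

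Receptors also followed each other across accumbens arrays, which share dissection and pool. Htr1a and Htr7 correlated at r = 0.91, Htr1b and Htr7 at -0.89, Htr1b and Htr1a at -0.87, and Htr2c (brighter probe set) and Htr1b at 0.71 (n = 27 arrays, a description). Over the 22 strains left without the 5 named above these were 0.60, -0.45, -0.40 and 0.30. The values with Htr1a or Htr7 involve levels under the floor. Htr4 stood apart from Htr1b and Htr2c (brighter probe set) there, at -0.02 and -0.26.

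The genes whose level was most like that of a receptor were listed over the arrays of the region where the receptor was brighter. In accumbens, Htr1b was most like Egr3, an activity-regulated transcription factor gene, at r = 0.95, Actn1, which encodes an actin crosslinker, at 0.94, and Akap5, which encodes an anchoring protein of protein kinase A, at 0.93. Over 22 strains these were 0.70, 0.66 and 0.66. Htr2c was most like Hnrnpll, which encodes an RNA-binding protein, Hpcal4, which encodes a neuronal calcium sensor, and Foxo1, a transcription factor gene, each at r = 0.84, and over 22 strains at 0.71, 0.75 and 0.71.

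Htr4 was most like Dlg1, which encodes a synaptic scaffold protein, at r = 0.84, Slc2a13, a myo-inositol transporter gene, at 0.83, and Man2a1, a Golgi mannosidase gene, at 0.81, and over 22 strains at 0.71, 0.77 and 0.72. The brightest Htr1d probe set was most like Ppp3r1, which encodes the regulatory subunit of calcineurin, at 0.88, and at 0.60 over 22 strains, although few of its levels passed log2 5. In cortex, Htr1a was most like Rab3c, which encodes a vesicle-associated GTPase, at r = 0.67 (n = 29 arrays), and Htr7 was most like Septin8 at 0.61. Without those 5 strains these were 0.60 and 0.53 (n = 24 arrays).

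Other genes of serotonin signalling were taken as lists. Of the 4 other receptor genes, Htr1f, Htr2b, Htr3b and Htr5b, none was tested, and the brightest was Htr1f, at 3.71 in accumbens and 3.19 in cortex. Of 13 genes of synthesis, uptake, storage and breakdown, 5 were tested, and 3 were higher and 2 lower in accumbens, against 51.8% and 31.5% of all tested probe sets. Ddc, the decarboxylase that makes serotonin and dopamine from their precursors, was at 6.58 in accumbens and 3.73 in cortex, a difference of 2.85 (SE 0.112, adjusted p = 3.69e-20 by limma). No cortex array of Ddc was above log2 5, and with values raised to it the difference was 1.58 (SE 0.0901). Pts and Qdpr, enzymes of the tetrahydrobiopterin cofactor, were higher by 0.44 and 0.40. Differences were small for the monoamine oxidase genes, at -0.22 for Maob (adjusted p = 0.028) and -0.10 for Maoa (adjusted p = 0.042, both by limma). Tph1 and Tph2, the genes of the rate-limiting hydroxylase, and Slc6a4, the serotonin transporter gene, were dim in both regions.

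Of 22 genes of receptor partners and effectors, 21 were tested, and 7 were higher, 12 lower and 2 did not pass in accumbens, with a median difference of -0.25 against 0.13 over all tested probe sets, of which 51.8% were higher and 31.5% lower. After quantile normalization 5 were higher and 14 lower, against 42.6% and 39.4%. Adcy5, the main striatal adenylyl cyclase gene, was higher by 3.44 and Gnal, the striatal G protein gene that couples to it, by 2.69. Adcy5 is also on the spiny neuron list used above for the region labels and the score, so its difference is not a separate observation. S100a10, which encodes the p11 protein that binds the Htr1b and Htr4 receptors, was lower, at 5.48 in accumbens and 7.72 in cortex, a difference of -2.22 (SE 0.088, adjusted p = 4.38e-20 by limma), opposite in direction to both receptors. Ahnak, which encodes a partner of p11, was lower by limma too, with a difference of -0.95, but only 1 accumbens array was above log2 5, and with values raised to it the difference was -0.33 (adjusted p = 0.00017 by limma). Plcb4, a phospholipase C gene, and Mpdz, which encodes a PDZ protein that binds the Htr2c receptor, differed by -1.63 and -1.15, opposite in direction to Htr2c.

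Between strains, 1 of the 5 tested synthesis genes and 2 of the 21 tested partners passed limma's F test, against 20.1% of all tested probe sets. Pts ran from 5.90 in 129S1/SvImJ to 6.81 in MA/MyJ as a mean of both regions (adjusted p = 0.011), and Plcb1, a phospholipase C gene, from 8.04 in RIIIS/J to 9.10 in BTBR T+ tf/J (adjusted p = 0.0048). Adarb2, which encodes an editing enzyme relative and marks interneurons of caudal ganglionic origin, ran from 4.48 in C57BL/6J to 6.91 in BALB/cByJ (adjusted p = 0.039). Without the 5 strains that stood apart all 3 still passed, with Pts at most 6.80 (adjusted p = 0.015) and Adarb2 at most 6.21 (adjusted p = 0.010 by limma), both in BTBR T+ tf/J. Calls of other list genes did depend on these strains. Mpdz passed without the 5 strains (adjusted p = 0.035, against 0.135 on all strains). S100a10 passed without BALB/cByJ (0.048, against 0.050) and Qdpr without MA/MyJ (0.034, against 0.080, all by limma). Adarb2 is itself on the list of those interneurons, and the other 9 genes of the list averaged 5.37 in BALB/cByJ, second highest among accumbens arrays after BUB/BnJ at 5.40. The part of those cells in the Adarb2 values was not tested.

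**Figure D4:**
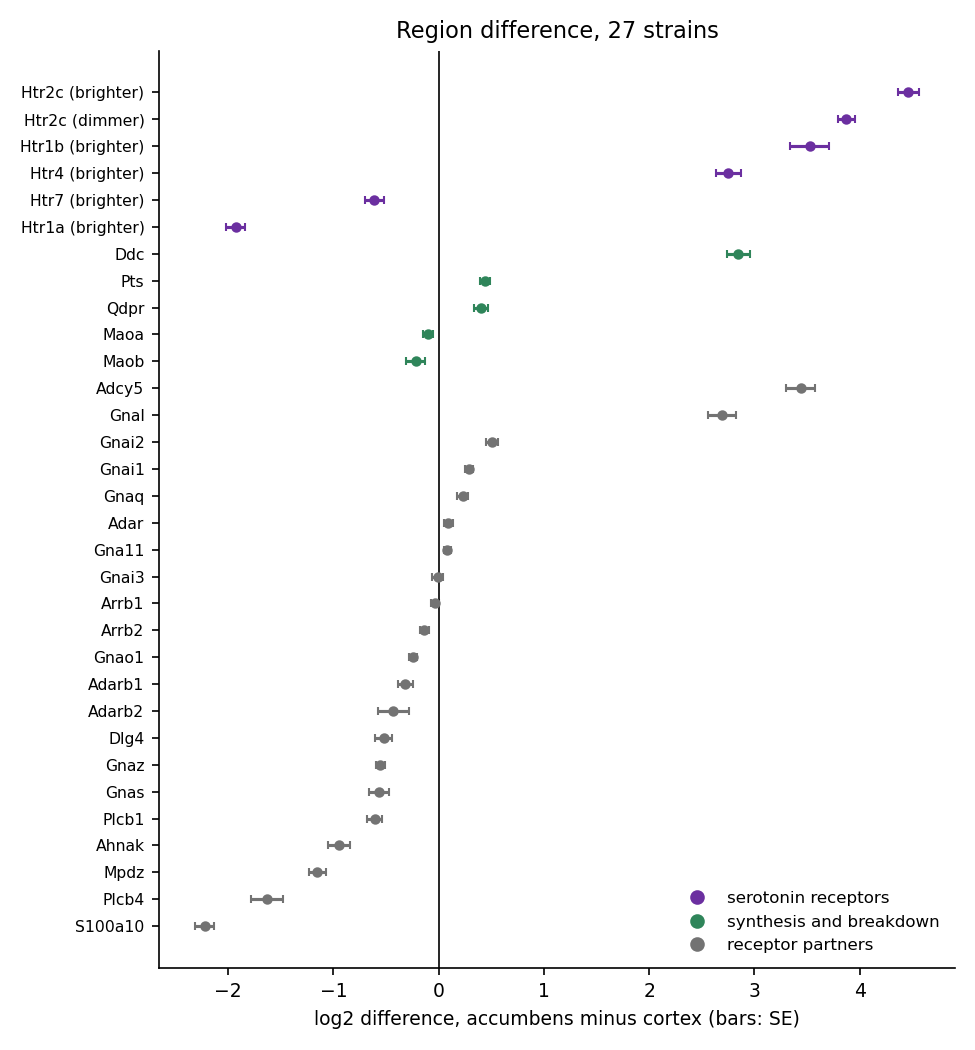
Difference of accumbens minus cortex on the log2 scale, with SE bars, over 27 strains, for the 6 tested receptor probe sets at the top, the tested genes of synthesis and breakdown, and the tested receptor partners at the bottom. Points right of 0 are higher in accumbens. Htr2c has the largest difference plotted, 4.46, and S100a10, at -2.22, lies on the other side of 0 from Htr1b and Htr4. Differences of Ddc, Ahnak and the receptors other than Htr2c (brighter) involve a region mean under log2 5.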

How the data were processed

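The authors' deposited values were probe set intensities on a linear scale, 1 column per array. Per the submitters' processing notes they were made with GCRMA, a method that subtracts background, normalizes between arrays and combines the probes of a set, of unstated version. Per the labels, RNA was labelled with an Affymetrix kit. The table held 45015 probe sets, of which 64 controls were left out. Probe sets were named from the platform's gene table, and only those with 1 symbol were used: 34880 had 1, 923 several and 9148 none. Median intensity was 9.66 to 10.13 on accumbens and 9.93 to 10.42 on cortex arrays. Precision is limited by how many arrays there were.

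Log2 of each intensity was used, without a pseudocount. Under R 4.3.3, lmFit and eBayes of limma 3.58.1 fitted region, with strain as a block since the design text describes neighbouring slices of a brain, without saying outright that the same mice gave both pools, at a threshold of 0.05 on Benjamini-Hochberg adjusted p-values. As a check of the strain labels, the best match in accumbens was the own strain for 21 of 27 cortex arrays. Such a match cannot tell whether the same mice gave both pools. Correlations used 100000 permutations in Python 3.11.15 with numpy 2.4.6, all tests were two-sided, and the smallest p they can give is 1e-05. On simulated data, 58% of region differences of 0.25 and 100% of those of 0.5 were called, and 70% and 92% of strain SDs of 0.25 and 0.5, with 0.0447% and 0.083% of 16056 unchanged probe sets.

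Named genes were every probe set of the receptors, up to 6 per list by size of difference, and the 3 genes most like each receptor, of which the text names part. Plcb1, Adarb2 and Pts are named for strain differences, a choice made after their values were seen. A list gene was represented by its brightest tested probe set. The receptors and lists were chosen with earlier results of these data known. Other lists, of interneurons of medial origin, ependyma, septum, oligodendrocytes, astrocytes, microglia and endothelium, averaged 7.24, 2.92, 6.42, 9.76, 8.16, 7.75 and 4.34 in accumbens and 7.91, 3.0, 4.01, 8.31, 8.54, 7.12 and 4.74 in cortex. Alternatives were other filters, normalizations, variance settings and blocks, 1 probe set per gene, and leaving out strains.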

Additional observations from a re-analysis of the deposited data

How the results depend on the processing

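No receptor's region difference changed direction under any alternative run, and leaving out each strain in turn changed no call for a receptor, in either test. Those refits of 26 strains gave 13231 to 13461 probe sets by region and 2864 to 3524 by strain, against 13380 and 3225. With no filter 35682 probe sets differed by region, 17003 higher and 18679 lower, and 9 and 5 of the receptors', against 8320, 5060, 4 and 2. With a filter at log2 7 the counts were 7054, 4293 and 2761, with 2 and 0 receptor probe sets, since fewer were tested, and by strain 1634. After quantile normalization 6841 probe sets were higher and 6333 lower. With 1 probe set per gene 5451 were higher, and at a threshold of 0.01 the strain count was 1873. The receptor count lower in accumbens was 1 with values raised to log2 5, where Htr7 did not pass (-0.07, adjusted p = 0.231 by limma). It was also 1 without C57BR/cdJ and C58/J, and without 9 strains (the 5 named above, BUB/BnJ, NOD/LtJ, P/J and SJL/J), because Htr1a then failed the filter. With no replicate block for strain, 12821 probe sets differed by region, 8003 higher and 4818 lower, and the receptor calls were the same. Correlations by Pearson's r with the score in accumbens went to 79 probe sets, 0 of them receptors, without the 5 strains, against 6009 and 6. The cause was not tested. In cortex, r of Htr1a with the score was -0.43, and 0.38 without those strains, neither passing. Precision is limited by 1 array per strain and region and by region means under log2 5 in both regions for 5 of the 9 receptor genes.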

Other observations

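Cortex levels (brighter probe sets) of the strains without an accumbens array belong to no paired comparison. In NZO/HILtJ, Htr1b was at 5.85, the highest cortex level after MA/MyJ, with Htr2c at 5.44, Htr1a at 4.83 and Htr7 at 5.41. In MRL/MpJ, Htr1b was at 4.08, Htr2c at 5.16, Htr1a at 5.12, Htr7 at 4.66 and Htr4 at 3.41, the lowest cortex level of Htr4.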
